A study of Mus musculus with 8 samples.

Results

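Mouse genes named Zfp and a number make up a large part of that genome's zinc finger genes, and they are described here by the accessibility of the regions at their ends. A region of open chromatin was taken as a member when its centre lay within 1 kb of either end of a protein-coding gene whose symbol is Zfp followed by digits alone. This gave 317 of the 160978 regions in the authors' comparison, at 296 of the 367 such genes among 21900 protein-coding genes. A gene was called clustered when some window of 500 kb held the midpoints of 3 or more Zfp genes, its own included, and single otherwise. By this rule 216 genes formed 35 clusters and 151 genes were single, which gave 186 clustered and 131 single regions. Of the 317 regions, 6 lay at the ends of 2 Zfp genes at once and 24 lay also at an end of another protein-coding gene.

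The libraries are ATAC-seq, in which a transposase inserts adapters into open DNA, from mouse bone marrow cells sorted as cKit+ Lymph- Ery-, a fraction that holds blood stem and progenitor cells. The 8 libraries comprised 4 labelled AML (acute myeloid leukemia) and 4 labelled normal. The AML libraries were 2 of genotype URE-delta/+;Tet2+/- and 2 of URE-delta/+;Tet2-/-, and the normal libraries were 1 each of URE+/+;Tet2+/+, URE-delta/+;Tet2+/+, URE+/+;Tet2+/- and URE+/+;Tet2-/-. The URE is the upstream enhancer of Spi1, the gene of the blood transcription factor PU.1, and Tet2 encodes an enzyme that starts the removal of methyl groups from DNA. Controls were age-matched per the series' design text, without a stated age. Loss of Tet2 together with the URE deletion occurred in the AML libraries alone, and so this double genotype and leukemia cannot be told apart. Both Tet2-only normal libraries came from lane 8, which held 0 AML libraries. The values used come from 1 comparison by the authors, leukemic over non-leukemic under low PU.1, which gives 1 log2 fold change, 1 log2 average abundance (a read level) and 1 adjusted p per region. Of genes that mark progenitor cells, Kit, Cd34, Ptprc and Mpo all had a gene-end region, with log2 abundances up to 3.26 in the authors' deposited table. The lymphoid genes Cd3e, Cd79a and Cd4 also had gene-end regions, with log2 abundances up to 1.41 in the authors' deposited table, and so had the erythroid genes Epor, Hbb-bt and Klf1. The sources used here do not give which libraries stood on each side, the depth of each or the spread between mice, and no value carries an SD.

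Most Zfp proteins hold arrays of C2H2 zinc fingers, in which each finger folds around a zinc ion and contacts a few bases of DNA. Many also carry a KRAB domain, which binds TRIM28 and through it the histone methyltransferase SETDB1, and so places the repressive mark H3K9me3 at the sites the fingers recognise, often retroelements. These genes have multiplied by local duplication, so that many lie side by side in clusters that differ even between close species, and others with older and more general roles lie alone.

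The promoters printed here show how different the starts of these genes are in sequence, for the 2 lowest and the 2 highest folds among regions at an annotated start with an adjusted p under 0.05. RefSeq windows of GRCm38.p6, from 250 bases before to 50 bases after a start, were found for 305 of the 367 genes. They run 5′ to 3′ on the gene's strand in lower case, with each CG dinucleotide in capitals. The windows of Zfp2 (chr11:50916127-50916426, minus strand, 13 CG) and Zfp652 (chr11:95748817-95749116, plus strand, 5 CG) lie under the lowest regions, and those of Zfp64 (chr2:168955538-168955837, minus strand, 9 CG) and Zfp952 (chr17:32992889-32993188, plus strand, 10 CG) under the highest.
Zfp2: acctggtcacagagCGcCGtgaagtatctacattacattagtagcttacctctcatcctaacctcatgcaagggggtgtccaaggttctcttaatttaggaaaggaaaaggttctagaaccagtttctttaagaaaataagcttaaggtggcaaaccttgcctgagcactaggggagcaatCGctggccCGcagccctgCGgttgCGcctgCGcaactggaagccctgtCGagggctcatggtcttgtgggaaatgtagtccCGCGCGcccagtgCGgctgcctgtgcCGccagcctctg
Zfp652: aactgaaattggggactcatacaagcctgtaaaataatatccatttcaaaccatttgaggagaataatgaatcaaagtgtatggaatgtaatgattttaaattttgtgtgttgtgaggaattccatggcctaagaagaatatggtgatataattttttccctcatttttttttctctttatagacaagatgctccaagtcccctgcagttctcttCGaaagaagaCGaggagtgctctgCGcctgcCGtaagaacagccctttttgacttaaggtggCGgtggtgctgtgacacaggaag
Zfp64: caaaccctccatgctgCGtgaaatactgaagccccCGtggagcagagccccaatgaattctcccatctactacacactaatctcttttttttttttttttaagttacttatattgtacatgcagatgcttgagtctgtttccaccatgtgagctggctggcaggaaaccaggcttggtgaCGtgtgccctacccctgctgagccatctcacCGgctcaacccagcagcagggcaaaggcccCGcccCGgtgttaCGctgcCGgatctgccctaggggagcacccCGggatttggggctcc
Zfp952: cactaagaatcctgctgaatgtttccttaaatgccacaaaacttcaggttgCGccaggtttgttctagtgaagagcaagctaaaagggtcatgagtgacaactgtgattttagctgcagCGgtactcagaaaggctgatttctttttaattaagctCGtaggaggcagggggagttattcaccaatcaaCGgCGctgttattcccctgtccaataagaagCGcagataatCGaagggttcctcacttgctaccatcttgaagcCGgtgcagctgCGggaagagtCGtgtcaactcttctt

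A second set shows how alike the starts of Zfp genes can be. Zfp966 (chr2:175931051-175931350, minus strand) and Zfp967 (chr2:176520754-176521053, plus strand) have the same 300 letters in these windows, and a single line serves both. Zfp965 (chr2:175469775-175470074, plus strand) and Zfp971 (chr2:178023034-178023333, plus strand) differ at 9 of 300 letters, which are the capitals in their lines.
Zfp966 and Zfp967: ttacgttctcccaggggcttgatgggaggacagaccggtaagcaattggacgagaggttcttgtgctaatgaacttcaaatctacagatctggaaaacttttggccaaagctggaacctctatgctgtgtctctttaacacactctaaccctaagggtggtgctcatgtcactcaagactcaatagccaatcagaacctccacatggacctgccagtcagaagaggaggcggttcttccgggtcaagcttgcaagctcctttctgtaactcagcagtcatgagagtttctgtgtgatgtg
Zfp965: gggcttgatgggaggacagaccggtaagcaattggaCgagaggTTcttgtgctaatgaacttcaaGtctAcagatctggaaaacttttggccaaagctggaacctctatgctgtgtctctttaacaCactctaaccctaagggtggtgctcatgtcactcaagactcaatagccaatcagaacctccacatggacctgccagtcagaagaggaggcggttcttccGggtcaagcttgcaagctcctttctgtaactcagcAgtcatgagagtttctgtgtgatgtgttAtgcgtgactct
Zfp971: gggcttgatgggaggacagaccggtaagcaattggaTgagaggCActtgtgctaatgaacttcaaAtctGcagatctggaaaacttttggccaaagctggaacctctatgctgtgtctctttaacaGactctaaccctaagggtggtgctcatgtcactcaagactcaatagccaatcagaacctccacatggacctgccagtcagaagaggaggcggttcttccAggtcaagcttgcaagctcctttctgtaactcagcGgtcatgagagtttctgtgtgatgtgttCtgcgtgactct

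Regions at Zfp gene ends leaned slightly towards higher accessibility in leukemic cells, and few passed the authors' threshold. The median log2 fold change, leukemic over non-leukemic, was 0.28 over the 317 regions, with quartiles at -0.05 and 0.64, and 229 of them (72.2%) were above 0. The 16075 regions at the ends of other protein-coding genes had a median of 0.22, with quartiles at -0.33 and 0.68, and 60.8% of them were above 0. The median over all 160978 regions was 0.02. The Zfp median therefore stood close to that of other gene ends, and the distribution was the narrower one, with an interquartile range of 0.69 against 1.00.

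Taken over all 317 regions, the narrowness lay mostly on the side of lower accessibility. Folds above 1 were as frequent at Zfp gene ends (12.3%) as at other gene ends (11.9%), whereas folds below -1 were found at 5.36% against 9.95%. Zfp gene ends also had the higher read level, with a median log2 abundance of 1.58 against 0.94, and 217 (68.5%) of them were in the highest of 5 equal abundance classes of all regions, against 57.9% of other gene ends. Within that class, folds below -1 made up 4.15% of the Zfp regions and 9.05% of the others, and the medians were 0.21 and 0.15. Folds above 1 were also rarer there at Zfp gene ends, at 5.07% against 7.36%. In regions up to 600 bp wide, folds below -1 were as frequent at the 51 Zfp regions (11.8%) as at the 5569 others (11.9%).

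The authors' sets of changed regions, at an adjusted p under 0.001, held 2 Zfp regions that rose and 1 that fell, or 0.946% of the 317. Among all regions 1.24% rose and 1.22% fell at that threshold, and among other protein-coding gene ends 1.20% rose and 1.54% fell. At an adjusted p under 0.05, 37 Zfp regions (11.7%) rose and 11 (3.47%) fell. The same threshold gave 10.1% risen and 8.09% fallen among other gene ends, and 7.98% risen and 9.21% fallen among all regions. The share that rose was thus near the background, and the share that fell was below it.

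Part of the background of falls comes from chromosome 2, where a long stretch, between 55 and 160 Mb in bins of 5 Mb and set from these same folds, held 731 other gene ends with a median of -0.90. Outside it, 6.14% of other gene ends and 2.61% of the 306 Zfp regions fell at 0.05. Inside it the 11 Zfp regions had a median of -0.92, close to that of their neighbours. Of these, the regions of Zfp408, Zfp106 and Zfp120 (27.3%) fell at 0.05, with -1.03, -1.17 and -0.97 in the authors' deposited table. Of the other gene ends in the stretch, 49.1% fell at 0.05. Those above 0 there were 2, the region at the end of Zfp341 (0.45, adjusted p 0.455) and that at the start of Zfp345 (0.10, adjusted p 1), per the authors' deposited table.

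**Figure D1:**
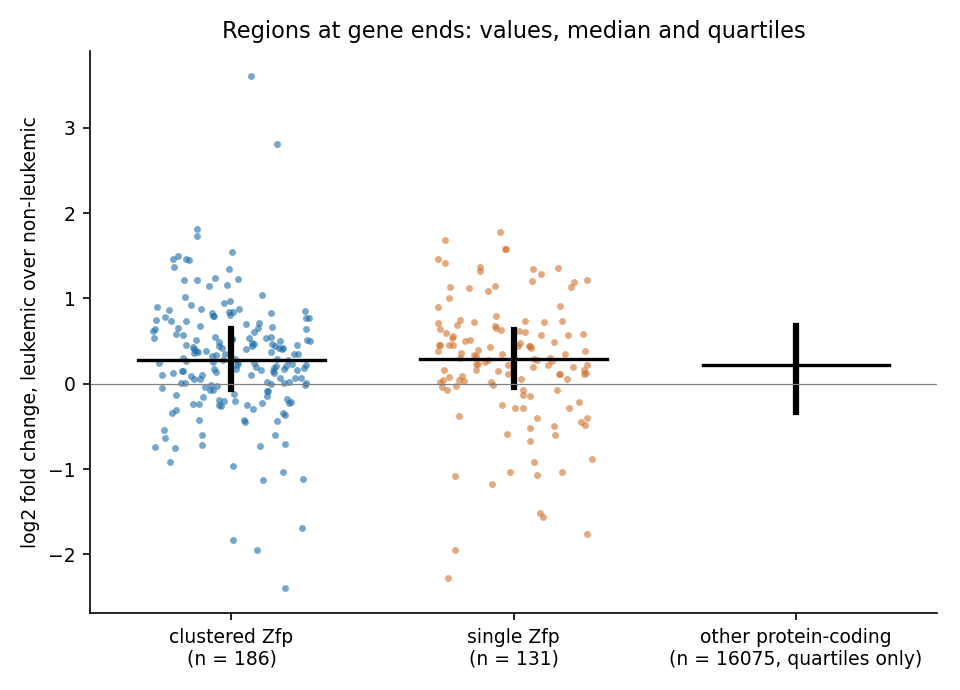
Log2 fold change (leukemic over non-leukemic, vertical axis) of each region at clustered (n = 186) and single (n = 131) Zfp gene ends, with sideways scatter for display. Horizontal lines are medians (0.28, 0.29 and, for 16075 other protein-coding gene ends, 0.22) and thick bars run between the quartiles. The other gene ends reach lower in their lower quartile (-0.33) than either Zfp group, and the 2 highest points belong to clustered genes.

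Clustered and single genes had nearly the same centre. The median was 0.28 for clustered regions (quartiles -0.07 and 0.64) and 0.29 for single ones (quartiles -0.03 and 0.63), and 71.5% and 73.3% of them were above 0. The difference between the medians was -0.016. The tails differed more than the centres. Folds above 1 were found at 10.2% of clustered and 15.3% of single regions, and folds below -1 at 3.76% and 7.63%. At 0.05, 24 clustered regions (12.9%) rose and 5 (2.69%) fell, and 13 single regions (9.92%) rose and 6 (4.58%) fell. The shares among other gene ends were 10.1% and 8.09%. All 3 regions of the authors' changed sets lay at clustered genes (1.61% of 186 regions), whereas the single genes had none among 131. Of other gene ends 2.74% were in those sets, and 3 regions are too few to set the groups apart. Whether these counts differ between clustered and single genes was not tested.

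The strongest rise was at Zfp773, a clustered gene of chromosome 7. For the region at chr7:7130621-7131046 the authors' deposited table gives a log2 fold of 3.60 (adjusted p 9.8e-06) and a log2 abundance of -0.33. It lies 5.9 kb from the gene's start, at its other end. At its start Zfp773 had a region with 0.45 (adjusted p 0.331) and the higher log2 abundance of 1.32 in the authors' deposited table. Another region at chr7:7126879-7127173 also rose at 0.05, with 2.06 (adjusted p 0.0047) in the authors' deposited table. The rise at this gene was therefore measured away from its promoter, in a region with fewer reads than the promoter.

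Zfp575 gave the other rise, also on chromosome 7. For its region at chr7:24588428-24588664 the authors' deposited table gives a log2 fold of 2.81 and an adjusted p of 2.9e-05. This region lies inside the neighbouring gene Ethe1, which encodes a mitochondrial sulfur dioxygenase, and just over 1 kb from an end of that gene. The other region at the ends of Zfp575 had -0.74 (adjusted p 0.213) in the authors' deposited table, so the sign differed between regions that lie side by side. Which gene the risen region serves was not tested.

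Zfp2 was the Zfp gene end that fell in the authors' sets. Its region at chr11:50915578-50916292 covers part of the promoter window printed above and had -2.39 (adjusted p 2.2e-04) with a log2 abundance of 1.74 in the authors' deposited table. Zfp2 is the last of a cluster of 3 genes on chromosome 11, and the other member region there, at Zfp879, stood at -0.44 in the authors' deposited table. The next region beyond Zfp2 fell at 0.05, with -1.21 (adjusted p 0.046) in the authors' deposited table. The 10 other gene ends within 500 kb of that cluster had a median of 0.03.

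**Figure D2:**
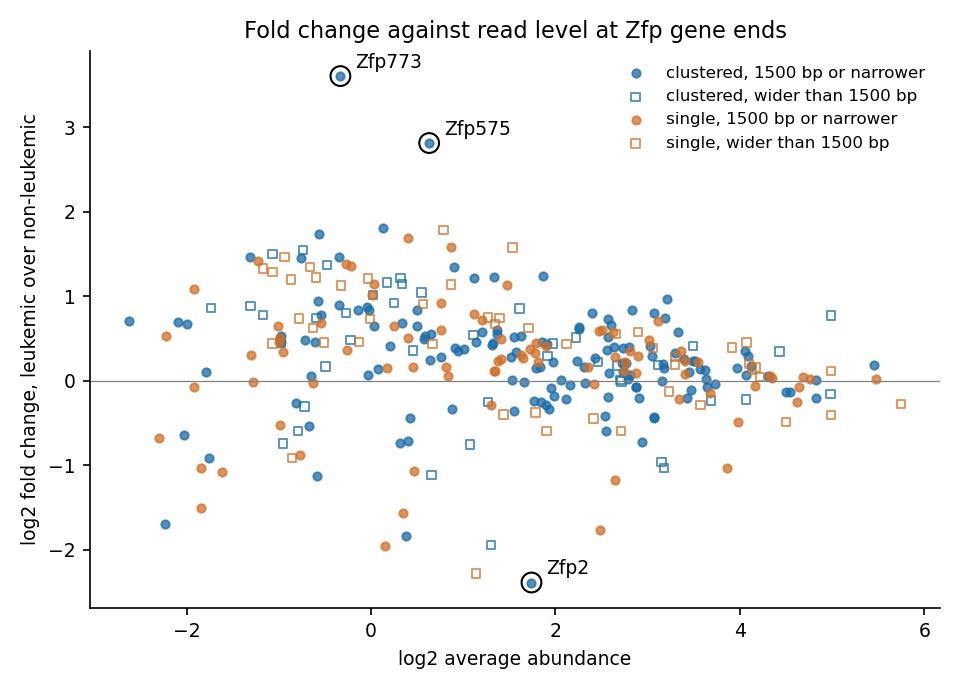
Log2 fold change (leukemic over non-leukemic, vertical axis) against log2 average abundance (horizontal axis) for the 317 regions at Zfp gene ends. Blue marks are clustered and orange marks single genes, open squares are regions wider than 1500 bp, and circles mark the 3 regions of the authors' changed sets. Strongly open regions lie close to 0, and open squares at low abundance lie mostly above it.

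At the threshold of 0.05, the lowest regions were those of Zfp2, Zfp652, Zfp831, Zfp819, Zfp235 and Zfp521. After Zfp2 came Zfp652, a single gene on chromosome 11, whose start region had -2.28 (adjusted p 0.00155) in the authors' deposited table. The authors' deposited table gives -1.95 for Zfp831 (adjusted p 0.0218) and likewise -1.95 for Zfp819 (adjusted p 0.0132). Zfp235 had -1.84 (adjusted p 0.0103) at the end away from its start in the authors' deposited table. Single genes supplied 3 of these 6, as did clustered ones.

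The highest regions at that threshold after Zfp773 and Zfp575 were at Zfp595, Zfp609, Zfp628 and Zfp960. For Zfp595 the authors' deposited table gives 1.81 (adjusted p 0.00119), at a gene end upstream of its annotated start. The Zfp628 region, at the end downstream of the start, had 1.73 (adjusted p 0.00255) in the authors' deposited table. The authors' deposited table gives 1.78 (adjusted p 0.00107) for Zfp609, whose protein works with the cohesin loader Nipbl. For Zfp960 the authors' deposited table gives 1.69 (adjusted p 0.00315). Of the 6 highest, 4 belong to clustered genes. The regions of Zfp773, Zfp595 and Zfp628 lay over 1 kb from every annotated start of these genes. Zfp575, Zfp609 and Zfp960 had no promoter entry to measure from.

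Regions were also grouped by their distance from the nearest annotated start of their own Zfp gene, and starts of other genes were not considered. At such a start lay 228 regions with a median of 0.28, of which 18 (7.89%) rose and 7 (3.07%) fell at an adjusted p under 0.05. Another 35 regions lay at a gene end more than 1 kb from every annotated start of that Zfp gene. Of these, 23 lay downstream of the nearest start, with a median of 0.35, and 6 (26.1%) rose and 1 (4.35%) fell. The 12 upstream of it had a median of 0.23, and 1 (8.33%) rose and 0 fell. The remaining 54 regions, at genes with no RefSeq promoter entry, had a median of 0.45, with 12 (22.2%) risen and 3 (5.56%) fallen. Among other gene ends 10.1% rose and 8.09% fell at that threshold, and differences between the classes were not tested. The median log2 abundance was 1.86 at starts, -0.61 and 0.72 in the downstream and upstream classes, and 0.87 in the remaining class.

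Fold size was lower where regions were more open, and the signed fold did not follow one direction over the abundance classes. Over the 317 regions, Spearman's rho was -0.33 between log2 abundance and fold, and -0.54 between log2 abundance and the absolute fold, and these regions come from 1 comparison and share its libraries. From the lowest to the highest abundance class the Zfp medians were -0.07, -0.08, 0.51, 0.73 and 0.21, over 4, 11, 28, 57 and 217 regions. Other gene ends had 0.08, 0.18, 0.39, 0.56 and 0.15 in the same classes. Broad regions of lower read level stood highest. The 34 Zfp regions wider than 1500 bp and below the highest abundance class had a median of 0.87, with 9 (26.5%) risen and 0 fallen at 0.05. The 1310 other gene ends of that kind had 0.83, with 16.9% risen and 1.45% fallen, so this feature was shared with protein-coding genes at large. The 57 broad Zfp regions within that class had 0.19, and the 3229 others of that kind -0.04.

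Among Zfp genes with described functions, those that silence retroelements and imprinted loci showed no common direction. Of 8 such genes, 6 had a region and Zfp708 and Zfp42 had none, the median was 0.54, and 1 region rose and 1 fell at 0.05. Among other gene ends 10.1% rose and 8.09% fell, and 6 regions are too few to set against those shares. Zfp568, a repressor of the placental Igf2 promoter, rose with 1.46 (adjusted p 0.0141) in the authors' deposited table. Zfp819, which has been linked to the control of retroelements in germ cells, fell, as given above. The authors' deposited table gives 0.92 (adjusted p 0.156) for Zfp809, which targets the primer binding site of retroviruses, and 1.28 (adjusted p 0.0625) for Zfp932, a repressor of endogenous retroviruses. For the imprint guardians Zfp445 and Zfp57 the authors' deposited table gives 0.15 (adjusted p 1) and -0.08 (adjusted p 0.958).

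Genes with roles in blood and immune cells also held 1 rise and 1 fall at 0.05. All 12 had a region, 13 in all, with a median of -0.20. At that threshold 10.1% of other gene ends rose and 8.09% fell, shares against which 13 regions are too few to be read. Zfp521, a cofactor expressed in stem cells and early progenitors, fell with -1.77 (adjusted p 0.00263) in the authors' deposited table. Zfp64, which is known to drive the MLL gene in leukemia cells, rose with 1.57 (adjusted p 0.0188) in the authors' deposited table. Values near 0 were found at the start and the other end of Zfp36 (-0.21 and 0.02), whose protein speeds the decay of cytokine messages, and at Zfp384 (0.13) and Zfp318 (0.16) in the authors' deposited table. Zfp148 had 0.44, Zfp281 had -0.29, Zfp91 had -0.28 and Zfp335 had -0.20, none with an adjusted p under 0.05 in the authors' deposited table. Zfp608 (-0.59), Zfp423 (-0.52) and Zfp217 (-0.02) likewise did not pass in the authors' deposited table.

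The Zfp genes listed for general use at promoters and in mitosis gave 4 regions, with 0 changes at 0.05. Beside the 10.1% risen and 8.09% fallen among other gene ends, 0 of 4 regions says little. Of 6 listed genes 4 had a region, Zfp91 among them, with a median of -0.02. Zfp207, whose protein takes part in attaching chromosomes to the spindle, had 0.19 (adjusted p 0.470) and Zfp131 had 0.73 (adjusted p 0.353), per the authors' deposited table. Zfp263 had -0.23 in the authors' deposited table. Zfp143 had no region within 1 kb of its ends, and Zfp161 was not matched in the annotation.

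The cofactors through which KRAB proteins silence chromatin are no members, and most did not pass the threshold. Of 23 listed symbols 22 were matched in the annotation, and 20 of these had a region. The 26 regions had a median of 0.40, above the 0.22 of other gene ends. At 0.05, 1 of the 26 rose and 0 fell, beside the 10.1% and 8.09% of other gene ends. The rise was at Ehmt2, a methyltransferase for H3K9, with 1.98 (adjusted p 0.00117) in the authors' deposited table. For Trim28 the authors' deposited table gives -0.68 (adjusted p 0.13). The 2 regions at the ends of Setdb1 had -1.14 (adjusted p 0.0899) and 0.09 (adjusted p 0.827) in the authors' deposited table.

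Other zinc finger families named by symbol had medians on both sides of the Zfp value. Among other protein-coding gene ends 10.1% rose and 8.09% fell at 0.05. Zbtb genes, which pair zinc fingers with a BTB domain, had 44 regions with a median of 0.33, and 8 (18.2%) rose and 0 fell at 0.05. Zscan and Zkscan genes, which carry a SCAN domain, had 22 regions with a median of 0.48, with 1 (4.55%) risen and 2 (9.09%) fallen. Genes named Zfp with further letters, such as Zfpm1 and Zfp36l1, had 31 regions with a median of 0.10, and 0 rose and 4 (12.9%) fell. Of these, 2 were in the authors' set at 0.001 (6.45% of the 31), where 1.54% of other gene ends fell. These differences between families were not tested.

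Most clusters had a median above 0. Of the 35 clusters, 34 had at least 1 region and 26 of these had a median above 0. In the 16 clusters with 5 or more regions, 14 medians were above 0, and the distance from the lowest to the highest region of a cluster ran from 0.58 to 4.65, with a median of 1.76. The cluster median exceeded the median of other gene ends nearby in 8 of these 16 clusters. Nearby means within the cluster or up to 500 kb beyond it. Such gene ends numbered from 3 to 59 per cluster, so some of their medians rest on few regions.

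The highest of these medians was that of the cluster from Zfp871 to Zfp414 on chromosome 17, at 0.65 against 0.40 nearby. All 11 of its regions were above 0, from Zfp472 (0.26) to Zfp952 (1.54, adjusted p 0.01) in the authors' deposited table, and 3 rose at 0.05. On chromosome 7, the cluster from Zfp84 to Zfp146 had 0.53 over 14 regions, 13 of them above 0, and 3 rose at 0.05. Its highest was Zfp568, given above, and its lowest was Zfp14 (-0.29, adjusted p 0.786) in the authors' deposited table. The nearby gene ends had 0.47, so this cluster stood where its surroundings stood.

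A pair of clusters with 16 regions each lay close to 0. The cluster from Zfp160 to Zfp945 on chromosome 17 had a median of 0.13 against 0.40 nearby, a value from 3 gene ends alone. Its lowest was Zfp54 (-0.43) and its highest Zfp820 (1.45, adjusted p 0.0156) in the authors' deposited table. On chromosome 13, the cluster from Zfp640 to Zfp273 had -0.00 against -0.21 at 9 gene ends nearby, with 8 regions above 0. Zfp458 (-0.91) was its lowest and Zfp595, given above, its highest in the authors' deposited table. In both clusters 1 region rose and 0 fell at 0.05.

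Among clusters with 5 or more regions, the lowest median was that of the cluster from Zfp120 to Zfp345 on chromosome 2, at -0.97, inside the low stretch and 0.03 above the median of gene ends nearby. Zfp345 supplied both its lowest region (-1.69, adjusted p 0.0831), at the end away from the start, and its highest in the authors' deposited table. On chromosome 7, the cluster from Zfp180 to Zfp575 had the widest spread, from Zfp235 to Zfp575, around a median of 0.38. The cluster from Zfp936 to Zfp819 was the one with 2 falls at 0.05, and its median was 0.23.

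The remaining clusters of 5 or more regions had medians between 0.13 and 0.54. Zfp212 was the highest of the cluster from Zfp786 to Zfp467 on chromosome 6, with 1.37 (adjusted p 0.0191) in the authors' deposited table, and nearby gene ends there had -0.17. Zfp964 (1.24, adjusted p 0.0115) led the cluster from Zfp930 to Zfp866 on chromosome 8, and Zfp653 (1.22, adjusted p 0.0143) led that from Zfp653 to Zfp810 on chromosome 9 in the authors' deposited table. The lowest of these 3 clusters were the region shared by Zfp398 and Zfp786 (-0.20), Zfp866 (-0.25) and Zfp810 (-0.54) in the authors' deposited table. The cluster from Zfp551 to Zfp446 on chromosome 7 was the tightest, between Zfp128 (-0.18) and Zfp324 (0.40) in the authors' deposited table. The clusters from Zfp60 to Zfp36, from Zfp553 to Zfp646 and from Zfp560 to Zfp846 had 0 rises and 0 falls at 0.05. Their lowest and highest regions were at Zfp974 (-0.64 and 0.57), at the end shared by Zfp646 and Zfp668 (-0.16) and Zfp689 (0.65), and at Zfp26 (-0.26) and Zfp426 (0.48) in the authors' deposited table. In the cluster from Zfp628 to Zfp580 the lowest was Zfp865 (-0.14) in the authors' deposited table.

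**Figure D3:**
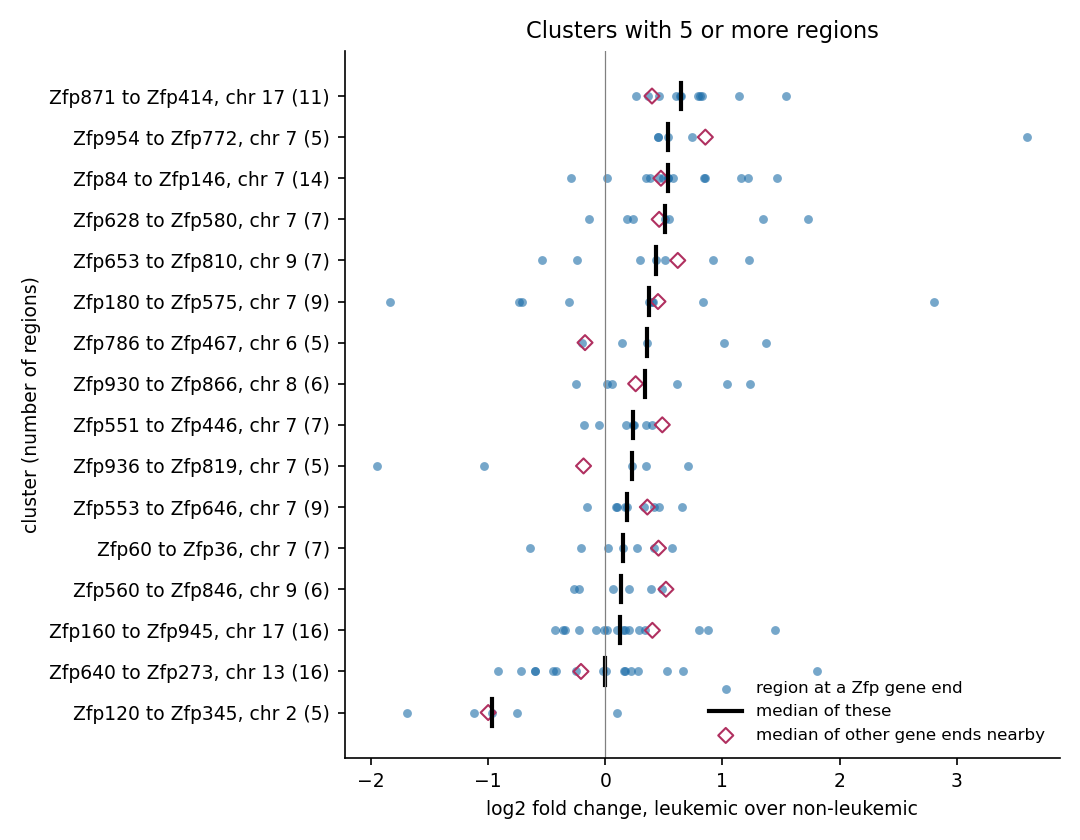
Log2 fold change (leukemic over non-leukemic, horizontal axis) of each region in the 16 clusters with 5 or more regions, ordered by median. Points are regions, black bars are cluster medians and open diamonds are medians of other gene ends nearby (from 3 to 59 per cluster). Cluster medians run from -0.97 on chromosome 2, beside its equally low neighbours, to 0.65 on chromosome 17, and most clusters span both sides of 0.

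The share of genes with an open region was alike in clustered and single genes and varied widely from cluster to cluster. At least 1 region was found for 175 of 216 clustered genes (81%) and for 121 of 151 single genes (80.1%), against 67.3% of the 21533 other protein-coding genes. The lowest shares were those of a pair of clusters on chromosome 4. The cluster from Zfp980 to Zfp993 had 6 genes and 0 with a region, and the cluster from Zfp991 to Zfp933 had 9 genes and 1 with a region, Zfp933, for which the authors' deposited table gives 0.90 (adjusted p 0.182). Without these 15 genes, 174 of 201 clustered genes (86.6%) had a region.

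Some Zfp genes have near copies of their promoter elsewhere in the genome, and the share with a region is given for these apart. For each gene with a RefSeq window, the share of its 31-letter words that also occur in a window of another gene at another place was counted on both strands. The share was over 50% for 26 of 305 genes, of which 16 (61.5%) had a region, against 82.1% of the other 279. Among single genes these numbers were 4 of 9 (44.4%) against 81.3%. Among the clustered genes of chromosome 4, 4 of 12 were over 50% and 0 of those 4 had a region, but so had only 1 of the other 8. Among clustered genes of other chromosomes, 12 of 13 genes over 50% had a region (92.3%), against 86% of the rest. The sources used here do not say how reads that match several places were treated, and the part of such reads in these counts was not tested.

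On the distal end of chromosome 2, genes with such copies were found both with and without a region. Zfp966 and Zfp967, with the same 300 letters, had 0 regions, and so had Zfp968 and Zfp973, whose windows differ from each other at 1 of 300 letters. Zfp965 had 0 regions as well, and Zfp971, which differs from it at the 9 letters capitalised above, had a region at chr2:178022891-178023796. Its log2 abundance was 2.33 and its fold -0.02 (adjusted p 1) in the authors' deposited table. Zfp970, all of whose words occur elsewhere, also had a region, with 0.51 (adjusted p 0.663) in the authors' deposited table, and so had Zfp931, which shares 74.1% of its words. No other pair of Zfp genes had windows within 30 letters of each other when compared letter by letter from the first base. Windows that match only after a shift, such as those of Zfp966 and Zfp968, are not counted as pairs here. Under the cluster rule all 5 genes without a region count as single.

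**Figure D4:**
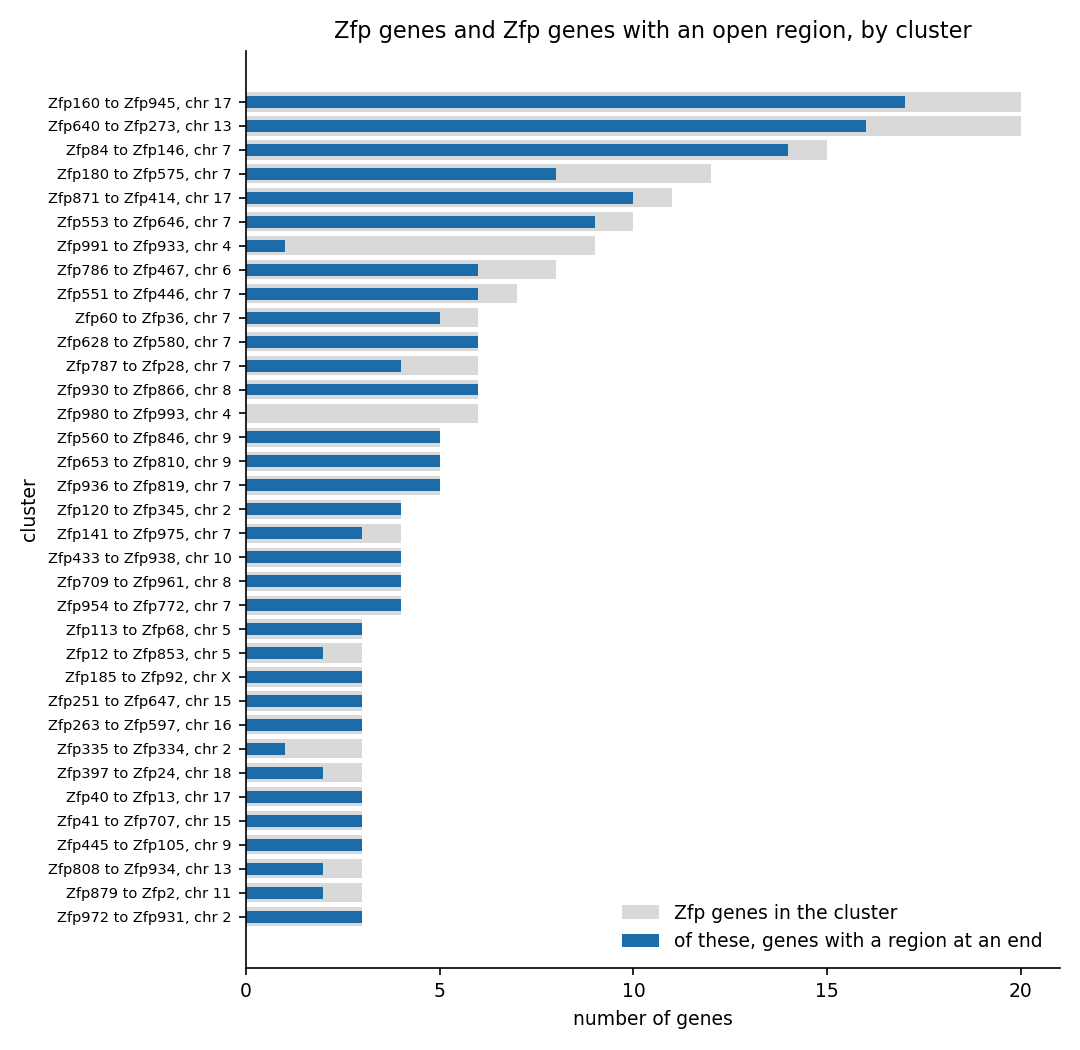
Number of Zfp genes (grey) and of Zfp genes with at least 1 region within 1 kb of an end (blue) in each of the 35 clusters, horizontal axis in genes. The least filled bars are the clusters from Zfp980 to Zfp993 (0 of 6) and from Zfp991 to Zfp933 (1 of 9) on chromosome 4, followed by that from Zfp335 to Zfp334 (1 of 3) on chromosome 2.

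Promoter windows of clustered genes held fewer CG at the median than those of single genes, and the CG number had no rank relation to the fold. The median number of CG dinucleotides per 300-base window was 11 in clustered and 17 in single Zfp genes, and 13 in other protein-coding genes, with a GC content of 53.3%, 58.3% and 56.7%. Over 224 regions paired with a window, Spearman's rho was 0.23 between CG number and log2 abundance and 0.00 between CG number and fold, for regions that share the libraries of 1 comparison. The windows printed first hold 13 and 5 CG at the low end of the folds and 9 and 10 at the high end, whereas the paired windows run from 2 to 59. They were picked by their folds and are too few to show a relation. Tet2 acts on methylated CG, and the number of CG in a window says nothing of its methylation, which these data do not measure.

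**Figure D5:**
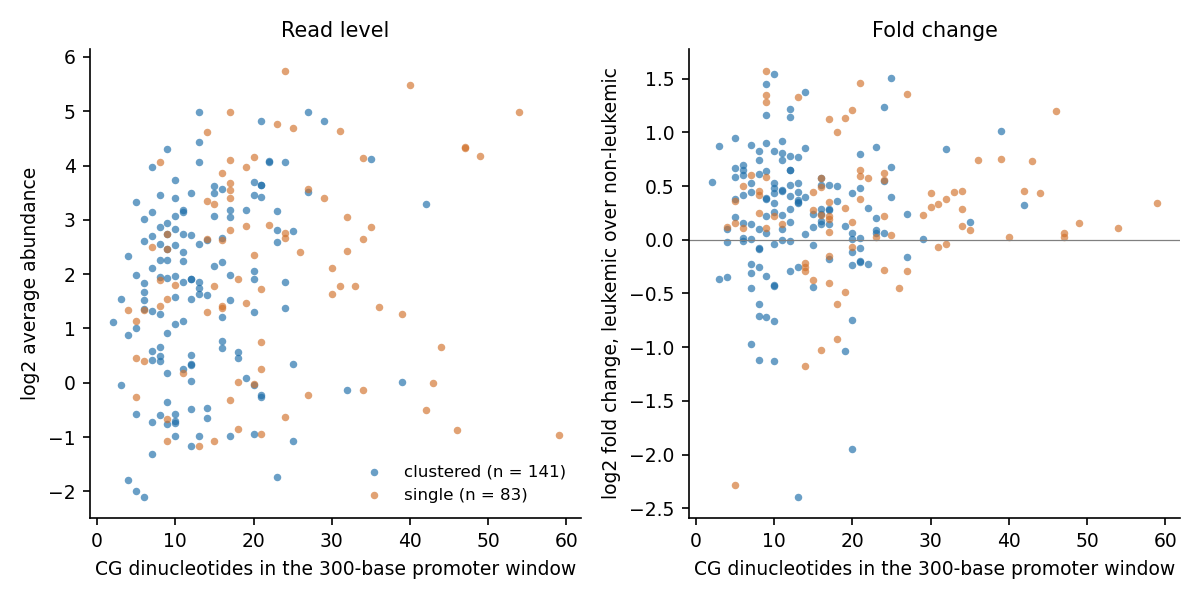
Log2 average abundance (left) and log2 fold change, leukemic over non-leukemic (right), against the number of CG dinucleotides in the 300-base promoter window, for 141 clustered (blue) and 83 single (orange) regions. Abundance rises weakly with CG number (rho 0.23), and the folds scatter around the same level at every CG number (rho 0.00).

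Motif letters were counted in the same windows on both strands, as descriptions of the letters alone, and no string searched contains another. The CCAAT box (CCAAT) was in 48.4% of the 368 Zfp windows and in 38% of windows of other protein-coding genes, and in 37.4% of all windows. The Sp1 letters (GGGCGG) were in 44.3% and 46.2%, and in 35.7% of all windows. The letters ACTACAATT, a core of the site of Zfp143, were in 2.99% against 0.464%, and in 0.393% of all windows. The NRF1 letters (GCGCATGCG) were in 4.35% against 2.32% (1.75% of all), the YY1 letters (AAGATGGCG) in 2.72% against 1.82% (1.4% of all), the cyclic AMP response element (TGACGTCA) in 3.53% against 2.21% (1.79% of all) and the Kaiso letters (TCTCGCGA) in 1.9% against 1.4% (0.995% of all). The letters GAGGAAGT, a core that PU.1 binds, were in 4.35% of Zfp windows, 3.11% of other protein-coding windows and 3.2% of all windows. The share was 3.03% in Zfp windows under a member region and 7.69% in those under none, and this difference was not tested. They were found at 13 Zfp genes, of which Zfp534, Zfp600, Zfp979, Zfp980, Zfp982, Zfp985 and Zfp987 belong to the chromosome 4 clusters and had 0 regions. In those clusters 14 of all 15 genes had no region. The others, Zfp445, Zfp473, Zfp54, Zfp605, Zfp809 and Zfp84, each had a region. Over the 224 paired regions, the median fold was 0.25 with and 0.28 without a CCAAT box, and 0.25 with and 0.28 without the Sp1 letters. The other letters were each in 5 to 11 of these regions, too few for their medians to be read. Those medians ran from 0.02 with the cyclic AMP response element (7 regions) to 0.74 with the Kaiso letters (5 regions). The PU.1 letters had 0.60 over 5 regions.

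The rule's distance limit fell within a thin tail of regions. Regions with centres 900 to 1000 bp from a Zfp gene end numbered 7, with a median of -0.02, and those at 1000 to 1100 bp numbered 10, with a median of 0.40.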

How the data were processed

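ATAC-seq was made from 8 libraries of sorted mouse marrow cells, and 4 deposited files hold 1 comparison by the authors, with no values per library, so depth per library is unknown. Per the submitters' processing notes the tools were Bowtie2 2.4.1, SAMtools 1.10.2 and Genrich 0.6 with GRCm38/mm10, and the deposited files' names give csaw. The sources used here do not state normalization, read filters or any cut-site shift. The deposited log2 fold change and log2 average abundance per region are the authors' own, a reading of the columns that rests on their position and range, and coordinates are printed as deposited. The authors' deposited p-value adjusts by Benjamini-Hochberg to the deposited adjusted p within 2.4e-15, and the authors' more and less accessible sets equal adjusted p under 0.001 by sign.

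Regions were joined to gene extents and promoter windows from RefSeq (GRCm38.p6) in Python 3.11.15 with pandas 2.3.3, NumPy 2.4.6 and SciPy 1.17.1, and figures were drawn with matplotlib 3.10.9. The assignment of regions, clusters and counts was tested on simulated data. No test was made, since no library values were used. The members, lists and rules were chosen with earlier results of these data known. Named regions are those under 0.001, the 6 highest and 6 lowest under 0.05, the extremes of clusters with 5 or more regions, and fixed role lists. Other genes are named in the accounts of chromosome 2, repeated promoters, motif letters, gene interiors and neighbours of changed regions. They were chosen after their values were seen, and not every changed interior region is named. Counts of protein zinc fingers and KRAB domains were planned and not run, since no protein sequences were used here.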

Additional observations from a re-analysis of the deposited data

How the results depend on the processing

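Medians held under every alternative run, and counts of changed regions followed the distance and the threshold. The median fold at Zfp gene ends (0.28) lay between 0.28 and 0.30 with a distance of 500 bp or 3 kb, with the most abundant region per gene, without chromosome 2 or X, and with the more abundant regions only. Its excess over other gene ends lay between 0.05 and 0.08. The difference of clustered and single medians lay between -0.03 and 0.06 and changed sign with 3 kb (0.056), with a window of 1 Mb (0.0046), and without either of the clusters with 16 regions (0.018 and, added after seeing the data, 0.039). The regions that rose at 0.001 numbered 1 within 500 bp, 5 within 3 kb and 37 at a threshold of 0.05, and those that fell 3 within 3 kb, 0 at a threshold of 0.0001 and 11 at 0.05. No paired analysis was possible because the files hold no values per library, and for the same reason no replicate could be left out. Every fold rests on an unknown set of libraries.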

Other observations

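Away from gene ends, the interiors of Zfp genes changed about as often as those of other genes. Inside Zfp genes lay 781 regions, with a log2 fold of 0.13 at the median, of which 11 rose and 10 fell at an adjusted p under 0.001, or 2.69% in all. The interiors of all protein-coding genes had 77975 regions, a median of -0.00 and 2.54% changed. Interiors of clustered genes had a median of 0.39 over 189 regions, with 2 rises and 0 falls, and those of single genes had -0.03 over 592 regions, with 9 rises and 10 falls. This gap between clustered and single interiors was not seen at their ends, and it was not tested.

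The changed interiors lay mostly in single genes, which also held 592 of the 781 regions inside Zfp genes. Whether single genes held more of the changes than this share was not tested. Some of the changed genes have roles in development or blood. Zfp521, a cofactor of early progenitors, fell inside with -2.57, beside its fallen end, in the authors' deposited table. Zfp608, which stood at -0.59 at its end, had 2 interior regions that fell, with -2.73 and -2.27 in the authors' deposited table. Zfp831 likewise had 2, with -3.29 and -2.23, in the authors' deposited table. Zfp800 held both directions, with -4.58 and 2.52 in the authors' deposited table. Falls were also found inside Zfp106 (-3.35), in the low stretch of chromosome 2, and Zfp740 (-2.75) in the authors' deposited table. Among the rises were Zfp536 (2.99 and 1.69), a repressor of neural differentiation, Zfp609 (2.24), Zfp148 (2.05) and the clustered Zfp568 (2.84) and Zfp442 (2.71) in the authors' deposited table. Zfp442 lies in the low stretch of chromosome 2, where other gene ends had a median of -0.90.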
